A study of Homo sapiens with 24 samples.

Results

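The SAR302503 persistent line is a population of SET2 cells grown continuously in SAR302503, the JAK2 inhibitor fedratinib, and it was compared here with naive SET2 cells that had met no inhibitor. SET2 is an established human cell line of megakaryoblasts, derived from a patient with a myeloproliferative neoplasm, and it needs JAK2 signalling to grow. The members were chosen by label: 3 libraries of the SAR302503 line and 3 naive libraries, 6 of the 24 libraries in the series. All groups were grown in the same serum-containing medium, and poly(A) RNA was sequenced on an Ion Proton instrument. A second set of inhibitor-free cells, 3 libraries given the vehicle DMSO for 4 h, served as another control. The other lines used for comparison were kept in BMS911543, CYT387 (momelotinib) or INC424 (ruxolitinib), with 3 libraries each. Each persistent group is 1 line, and the labels give neither the inhibitor concentration nor the length of exposure. They also do not say whether the 3 libraries of a group came from separate cultures, so p-values measure only the spread between these libraries.

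JAK2 is the kinase that carries signals from cytokine receptors such as the erythropoietin receptor, EPOR, to STAT transcription factors, chiefly STAT5 in this lineage. Type I inhibitors such as fedratinib bind the kinase in its active conformation and compete with ATP. Cells kept in such drugs can go on growing while the drug is present, a state called persistence, and the megakaryoblast from which SET2 derives shares a precursor with red cells, mast cells and basophils.

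Each of the 6 libraries held 23108234 to 33824160 reads assigned to genes. Values are normalised counts, reads divided by 1 size factor per library, and each difference is SAR302503 minus naive on the log2(normalised count + 1) scale, which understates the change of low genes, with its standard error (SE). Genes that reached a normalised count of 10 in 3 or more of the 6 libraries, 17180 in all, were tested with limma, and a gene is said to rise or fall only with a Benjamini-Hochberg adjusted p under 0.05. By that rule 1091 genes were higher in the SAR302503 line, 6.35% of those tested, and 1572 were lower, 9.15%. A gene under 10 in every library of 1 group passed the filter only through the other group. It could be called only as higher in that other group, so list counts that hold such genes are partly fixed by the filter. IL10RA, TPSAB1, PPBP and NMUR1 were such genes, low in the line. HBZ, CD3E and CD3G were others, low in naive cells. The 12 markers of the megakaryoblastic identity of SET2 were detected in both groups, with summed levels of 133438.8 to 187901.7 in the line and 169930.9 to 204874.9 in naive cells. Library 3 of the line stood apart. Squamous epithelial markers took 0.114% of its reads, 0.00813% and 0.0205% in libraries 1 and 2, and 0.000302% to 0.00229% in naive libraries. Stromal and vessel markers summed to 791.6 to 1314.8 in the line, with DCN and POSTN at 0, and to 1952.6 to 2016.0 in naive cells, with POSTN at 0. Of 7 tested 2 fell. Lymphoid markers summed to 1582.0 to 2349.6 and 2277.7 to 2359.4, and of 6 tested 3 rose and 1 fell. Of the 1091 rises, 984 also passed without library 3, as did 1528 of the 1572 falls. Libraries 1 and 3 of the line were run again for more reads and no naive library was, so the extra run and the line can hardly be told apart. With a term for it, 450 genes were higher and 994 lower. The count of rises was 578 without SAR302503 library 1, 1712 without SAR302503 library 3, 591 without naive library 2 and 528 without naive library 3. The count of falls was 951 without naive library 2 and 938 without naive library 3.

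**Figure D1:**
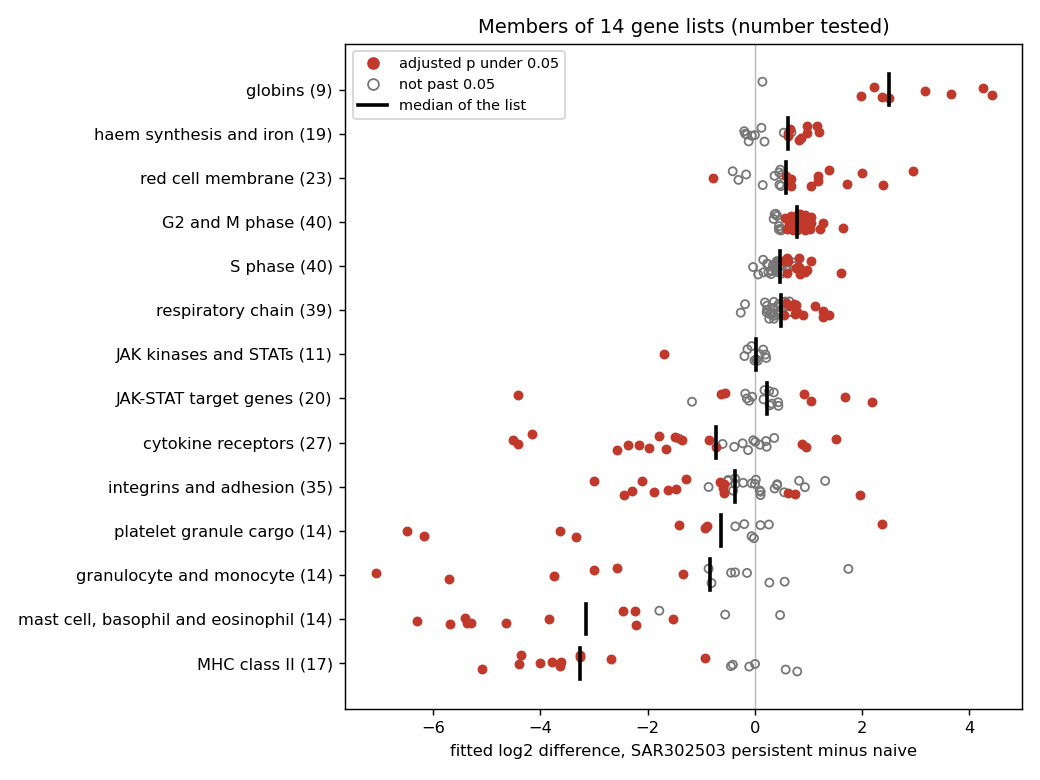
Fitted log2 difference between the SAR302503 line and naive cells (x axis) for the tested members of 14 gene lists (rows, number tested in brackets), 3 libraries per group. Filled points passed an adjusted p of 0.05, open points did not, and black bars are list medians; MHC class II and mast cell genes lie far to the left (medians -3.25 and -3.15) and globins far to the right (2.51).

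The drug's target and its STAT partners were expressed in the line at levels near those of naive cells. JAK2 stood at 4332, 5205 and 2872 in the 3 SAR302503 libraries and at 4382, 3747 and 3744 in the naive libraries, a difference of 0.02 ± 0.21 (SE, adjusted p = 0.956). The 2 ranges overlap. STAT5A and STAT5B, the main STATs downstream of JAK2 in this lineage, differed by -0.01 ± 0.15 and -0.06 ± 0.14. STAT3 differed by 0.16 ± 0.15, JAK1 by 0.20 ± 0.16, TYK2 by 0.09 ± 0.23 and JAK3 by 0.05 ± 0.23, and none of these passed. Of the 11 kinases and STATs tested, 0 rose and 1, STAT4, passed as lower. STAT4 stood at 11.5, 41.9 and 44 against 76.2, 92.7 and 112, and its call was lost without SAR302503 library 1 or any 1 of the naive libraries (adjusted p = 0.0722 to 0.144).

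Genes that STATs are known to drive did not move as a block. Of 20 tested, 4 rose and 3 fell, and their median difference was 0.22 against 0.00 over all genes. SOCS3, which feeds back on the receptor complex, stood at 7326, 7277 and 10599.6 in the line and at 3718, 4214 and 4133 in naive cells (1.04 ± 0.18, adjusted p = 0.00221). Every SAR302503 library was above every naive one. ID1, an inhibitor of differentiation factors, stood at 1182, 947 and 1850.3 against 322, 478 and 409.7 (1.68 ± 0.26, adjusted p = 0.00104). CCND3, a D cyclin, stood at 16760.5, 15337 and 22112 against 8561, 9767 and 10018 (0.92 ± 0.17, adjusted p = 0.00392). PIM1, a survival kinase, did not pass (28618, 29698 and 35224 against 32916, 32870.1 and 34503). IL2RA, a chain of the interleukin 2 receptor, fell from 1309, 1186 and 1254 to 64.5, 73.7 and 39.6 (-4.42 ± 0.26, adjusted p = 1.13e-06). With the term for the run-again libraries the calls for SOCS3 (0.86, adjusted p = 0.0576) and CCND3 (0.70, adjusted p = 0.0968) were lost. The falls among these targets numbered 1 without SAR302503 library 1, naive library 2 or naive library 3.

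Receptors for cytokines of the myeloid and lymphoid lineages fell more often than they rose. Of 27 genes tested on the cytokine receptor list, 13 fell, 3 rose and 11 did not pass, with a median of -0.72. The list also holds TSLP, a cytokine. EPOR stood at 1422, 1452 and 2304 in the line and at 718, 996 and 1064 in naive cells (0.88 ± 0.23, adjusted p = 0.0239). EPOR's groups did not overlap, but its call was lost without naive library 1 (adjusted p = 0.0863) or naive library 2 (0.0534), and without naive library 2 none of the 27 was higher. CSF2RB, the chain shared by the receptors for interleukin 3, interleukin 5 and GM-CSF, fell from 32509, 42676 and 46014 to 8794, 7690.3 and 10412 (-2.17 ± 0.18, adjusted p = 1.2e-05). IL5RA, the chain specific to interleukin 5, fell from 527, 499 and 484 to 28.8, 30.5 and 10.6 (-4.51 ± 0.38, adjusted p = 1.21e-05). CSF3R, the receptor for G-CSF, fell from 423, 662 and 689 to 111, 77.5 and 105 (-2.57 ± 0.27, adjusted p = 6.63e-05). In all 3 genes the highest SAR302503 library lay far under the lowest naive one. IL6R fell by 2.37 ± 0.19 on the log2 scale, and IL10RA differed by -4.17 ± 0.73. The falls numbered 12 to 14 when any 1 of the 6 libraries was left out.

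Among receptor tyrosine kinases 3 of 27 tested rose and 3 fell. KIT, the receptor for stem cell factor on progenitors and mast cells, fell from 24656, 22179 and 21611 to 4611, 5425 and 3137 (-2.41 ± 0.20, adjusted p = 9.95e-06). AXL, a receptor of the TAM family, rose from 1061, 1257 and 1023 to 5199, 5026 and 7059 (2.36 ± 0.18, adjusted p = 6.79e-06). KIT and AXL thus moved in opposite directions, each with no overlap between the groups. EPHB6, an ephrin receptor without kinase activity, fell from 151, 154 and 148 to 6.91, 14 and 14.1 (-3.65 ± 0.40, adjusted p = 8.74e-05).

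MHC class II genes had the lowest median difference of the 54 pathway lists. These genes encode the paired alpha and beta chains that present peptides to T cells, and their transcription needs the coactivator CIITA, which acts with DNA-bound RFX and NF-Y factors at a conserved promoter module. NF-Y binds the Y box in that module. Promoters of 3 class II genes that fell are shown because they hold the letters CTGATTGG, a form of the Y box. Each is the 220 bases before the transcription start from RefSeq (GRCh38.p14), on the minus strand at chr6:32589849-32590068, chr6:32530288-32530507 and chr6:32666658-32666877, with the match in capitals.

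HLA-DRB1: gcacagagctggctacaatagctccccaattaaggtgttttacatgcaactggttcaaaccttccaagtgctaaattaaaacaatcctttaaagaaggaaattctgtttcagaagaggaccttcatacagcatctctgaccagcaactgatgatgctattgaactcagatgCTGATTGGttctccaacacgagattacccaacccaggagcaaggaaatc
HLA-DRB5: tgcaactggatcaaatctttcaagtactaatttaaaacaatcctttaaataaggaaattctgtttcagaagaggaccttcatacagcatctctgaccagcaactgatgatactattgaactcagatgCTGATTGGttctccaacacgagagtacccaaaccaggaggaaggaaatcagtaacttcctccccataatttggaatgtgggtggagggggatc
HLA-DQB1: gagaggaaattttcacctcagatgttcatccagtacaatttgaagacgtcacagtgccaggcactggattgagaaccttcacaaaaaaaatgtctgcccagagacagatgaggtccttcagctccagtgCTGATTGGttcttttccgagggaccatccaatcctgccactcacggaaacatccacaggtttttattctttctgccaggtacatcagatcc

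The match began 49, 93 and 91 bases before the start. Searched on both strands over the full window of each promoter in the table, CTGATTGG was found in 1281 of 35116 promoters (3.65%) and in 5 of the 15 class II pathway genes with an entry (HLA-DMA, HLA-DQB1, HLA-DRB1, HLA-DRB5 and RFX5). A match of letters is a description of the sequence and does not show binding.

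Of 17 class II pathway genes tested, 11 fell and 0 rose, with a median of -3.25. HLA-DRA, the alpha chain of HLA-DR, stood at 2699, 2186 and 2073 in naive cells and at 151, 116 and 165 in the line (-4.01 ± 0.21, adjusted p = 5.84e-07). HLA-DRB1, its main beta chain, stood at 1921, 1793 and 1529 against 74.8, 63.5 and 122 (-4.36 ± 0.26, adjusted p = 1.13e-06). HLA-DQB1, a beta chain of HLA-DQ, stood at 646, 766 and 888 against 71.4, 91.5 and 74.9 (-3.25 ± 0.24, adjusted p = 4.54e-06). In each, the lowest naive library was several times the highest SAR302503 library. HLA-DPA1 and HLA-DPB1, the chains of HLA-DP, differed by -3.27 ± 0.26 and -3.63 ± 0.35. HLA-DRB5 and HLA-DRB1 are near copies, so reads may be shared between them.

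The coactivator and the chaperone fell with the chains. CIITA stood at 568, 686 and 699 in naive cells and 38, 50.8 and 51.1 in the line (-3.78 ± 0.25, adjusted p = 2.76e-06). CD74, the invariant chain that occupies the peptide groove during assembly, stood at 7687, 7663 and 7565 against 1169.7, 971 and 1491 (-2.68 ± 0.18, adjusted p = 2.87e-06). CD74 remained well expressed in each SAR302503 library, while CIITA was scarce in each. The RFX subunits behaved otherwise: RFX5 stood at 3716, 4070.5 and 4686 against 3930.5, 4137 and 3509 (-0.10 ± 0.16, adjusted p = 0.722). RFXANK differed by 0.00 ± 0.20, and RFXAP by 0.58 ± 0.25, which passed without SAR302503 library 3 (adjusted p = 0.0443). HLA-DMA, a peptide exchange factor whose promoter also holds the motif, stood at 852, 871 and 945 against 615, 658 and 739.8 and did not pass (-0.41 ± 0.18, adjusted p = 0.155), though it did without SAR302503 library 3 (adjusted p = 0.0459). Its partner HLA-DMB lost its call when any library other than SAR302503 library 3 was left out (adjusted p = 0.0833 to 0.125). Over the leave-outs the falls numbered 10 to 12. Markers of macrophages, which also express class II genes, summed to 2714.2 to 5338.5 in the line and 5041.1 to 6750.0 in naive cells. Of these C1QA, C1QB, C1QC and FCGR3A were at 0 in the line, CD163 and C1QB were at 0 in naive cells, and 0 of 3 tested passed. Their part in the fall was not tested.

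**Figure D2:**
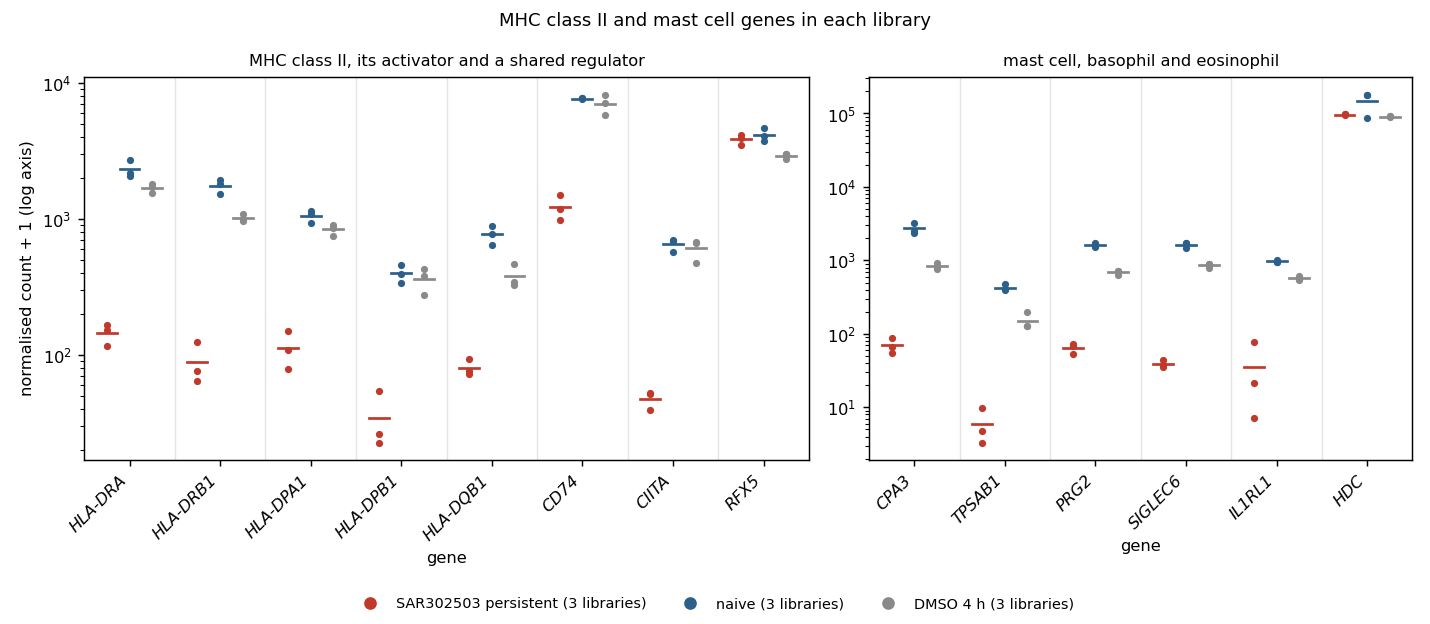
Normalised count plus 1 (y axis, log scale) of MHC class II genes (left) and mast cell, basophil and eosinophil genes (right) in each library of the SAR302503 line, naive cells and DMSO cells; points are libraries and lines are means of 3. CIITA and the class II chains sit far below naive cells in all 3 SAR302503 libraries while RFX5 does not; HDC overlaps between groups while CPA3 falls from 2374 or more to 87.5 or less.

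Genes of mast cells, basophils and eosinophils were the other large fall. Naive SET2 cells expressed many of them, and of 14 tested 11 fell in the line and 0 rose, with a median of -3.15. In bulk RNA, fewer cells of a type and less RNA per cell cannot be told apart. The promoter of CPA3 is shown because it holds GATAAG, a form of the motif of GATA factors, 172 and 44 bases before the start. It is the 220 bases before the start from RefSeq (GRCh38.p14), chr3:148865076-148865295 on the plus strand, with the matches in capitals.

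CPA3: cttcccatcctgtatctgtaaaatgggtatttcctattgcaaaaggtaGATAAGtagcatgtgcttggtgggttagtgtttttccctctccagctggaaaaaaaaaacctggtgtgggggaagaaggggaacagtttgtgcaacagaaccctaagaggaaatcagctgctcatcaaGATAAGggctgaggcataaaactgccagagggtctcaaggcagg

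GATAAG was found on either strand in 1726 of 35116 promoters (4.92%) and in 3 of the 12 genes of this list with an entry (CPA3, IL1RL1 and MS4A2).

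CPA3, a carboxypeptidase of mast cell granules, stood at 3269, 2374 and 2534 in naive cells and at 87.5, 66.1 and 53.7 in the line (-5.30 ± 0.24, adjusted p = 1.83e-07). TPSAB1, a tryptase, stood at 407, 478 and 391 against 2.3, 3.81 and 8.81 (-6.30 ± 0.44, adjusted p = 3.35e-06). PRG2, the major basic protein of eosinophil granules, stood at 1623, 1517 and 1699 against 53, 71.2 and 66.9 (-4.65 ± 0.22, adjusted p = 2.21e-07). All 3 were far lower in each SAR302503 library than in any naive one. The tryptases TPSB2 and TPSD1 differed by -5.68 ± 0.72 and -5.99 ± 0.51, and tryptase genes are near copies whose reads may be shared. SIGLEC6, a sialic acid receptor of mast cells, fell from 1457, 1725 and 1721 to 43.7, 34.3 and 37 (-5.38 ± 0.23, adjusted p = 1.17e-07). IL1RL1, the interleukin 33 receptor, fell from 954, 1010.3 and 949.8 to 77.1, 20.3 and 6.17 (-5.41 ± 0.63, adjusted p = 0.000148). HDC, which makes histamine, was an exception among the granule genes. It stood at 87069, 178813 and 181021 in naive cells and at 97587, 94347 and 96913 in the line (-0.55 ± 0.26, adjusted p = 0.182), with naive library 1 under the line and naive libraries 2 and 3 above it. Without naive library 1 its fall passed (-0.90, adjusted p = 0.00597). The falls on this list numbered 11 or 12 under every leave-out.

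Granulocyte and monocyte genes fell in 6 of 14 tested and rose in 0. TCN1, the vitamin B12 carrier of neutrophil granules, stood at 1033, 667 and 696 in naive cells and 8.06, 0 and 21.1 in the line (-7.07 ± 0.84, adjusted p = 0.00017). DHRS9, a retinol dehydrogenase, stood at 8877, 7738 and 7177 against 115, 201 and 147 (-5.71 ± 0.22, adjusted p = 5.12e-08). CD33, a myeloid surface lectin, stood at 6136, 6603 and 6077 against 2420.0, 2538 and 2479.9 (-1.34 ± 0.15, adjusted p = 9.52e-05). CD33 kept a larger part of its naive level than TCN1 or DHRS9 did. CTSG, a neutrophil protease, fell by 3.01 ± 0.53.

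Peptide hormone and prostanoid signalling genes fell in 6 of 11 tested and rose in 1. ADCYAP1, which encodes the neuropeptide PACAP, was abundant in naive cells at 21812, 21492 and 23311 and stood at 900.3, 837 and 793 in the line (-4.72 ± 0.15, adjusted p = 1.73e-08). VIPR1, a receptor for PACAP and VIP, fell from 114, 189 and 173 to 34.5, 20.3 and 11.4 (-2.88 ± 0.43, adjusted p = 0.00084). Ligand and receptor were both lower in each SAR302503 library than in any naive one. PTGER3, a prostaglandin E2 receptor, fell by 1.81 ± 0.23. NMUR1, a neuromedin receptor, had 0 reads in the line and 56 in naive cells, which is at least 18.9-fold lower against a floor of 3 reads over the group. It passed the count filter only through naive cells, so it could not have been called as a rise. DMSO cells, also free of inhibitor, held NMUR1 at 0, 0 and 2.37, so its fall depends on the control. The 1 rise was GAL, the peptide galanin, from 91.4, 112 and 95.8 to 225, 357 and 486 (1.76 ± 0.30, adjusted p = 0.0021).

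Cargo genes of platelet granules fell more often than they rose, while surface glycoproteins of megakaryocytes moved both ways. Of 14 cargo genes tested 7 fell and 1 rose, with a median of -0.63. VWF, von Willebrand factor, stood at 343, 361 and 369 in naive cells and 0, 3.81 and 12.3 in the line (-6.49 ± 0.73, adjusted p = 0.00012). F13A1, the A chain of coagulation factor XIII, stood at 581, 621 and 569.7 against 1.15, 15.2 and 15 (-6.17 ± 0.64, adjusted p = 6.43e-05). SELP, the adhesion receptor P-selectin, stood at 1806, 1801 and 1911 against 209.5, 169 and 167 (-3.34 ± 0.19, adjusted p = 9.63e-07). VWF and F13A1 were almost lost and SELP was clearly present in all 3 SAR302503 libraries. PPBP, a platelet chemokine, was already low in naive cells (12.9, 22.6 and 10.2) and had 1 read in all of the line, a ratio of 42.4 with a 95% counting interval of 7.21 to 1716. Its adjusted p was 0.0122, and 0.104 without naive library 2. EGF was the cargo gene that rose, from 29.3, 50.7 and 31.6 to 204, 236 and 144 (2.37 ± 0.34, adjusted p = 0.000634).

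Of 16 megakaryocyte surface genes 2 rose and 3 fell. GP9, a subunit of the von Willebrand factor receptor, rose from 273, 408 and 486 to 1303, 934 and 1779.8 (1.77 ± 0.27, adjusted p = 0.00108). P2RY1, a receptor for ADP, fell from 2134, 2510.2 and 2498 to 1114, 1107 and 1089 (-1.10 ± 0.16, adjusted p = 0.000715). F2RL3, a thrombin receptor, fell by 0.85 ± 0.17. GP9 and P2RY1, both of the platelet surface, moved in opposite directions with no overlap between groups.

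Among 27 transcription factors of these lineages 6 fell and 1 rose. SPI1, the myeloid factor PU.1, fell from 3023, 2946 and 3216 to 1056, 868 and 1364 (-1.51 ± 0.19, adjusted p = 0.00026). MYB, a progenitor factor, fell from 10783, 10231 and 9895 to 5563, 6495 and 4881 (-0.88 ± 0.16, adjusted p = 0.00307). LYL1 differed by -1.01 ± 0.20 and SOX4 by -0.87 ± 0.15. Each of these 4 genes was lower in every SAR302503 library than in every naive library. Against DMSO cells SOX4 passed the other way, higher in the line by 0.38 (adjusted p = 0.0364), and with the term for the run-again libraries the call for MYB was lost (-0.66, adjusted p = 0.0789). Adhesion genes also fell more often than they rose, 12 against 3 of 35 tested. ITGAL, the alpha chain of LFA-1, fell from 2557, 2974 and 3129 to 395, 304 and 387 (-3.0 ± 0.19, adjusted p = 1.53e-06). CD44, the hyaluronan receptor, fell from 12181, 11162 and 11000.4 to 3387, 4029 and 3834 (-1.61 ± 0.15, adjusted p = 2.83e-05). ITGA9 fell by 1.87 ± 0.19.

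Red cell genes rose, led by globins. Of 9 globin genes tested 8 rose and 0 fell, with a median of 2.51, and 8 rose under every leave-out. HBE1, the embryonic epsilon chain, stood at 607, 879.9 and 584 in naive cells and at 14532, 9722 and 15432 in the line (4.25 ± 0.22, adjusted p = 5.84e-07). HBA1, an alpha chain, stood at 361, 332 and 322 against 3623, 2944 and 7508 (3.67 ± 0.29, adjusted p = 7.43e-06). HBZ, the embryonic zeta chain, stood at 2.34, 5.39 and 0 against 41.4, 36.9 and 129 (4.42 ± 0.78, adjusted p = 0.00256). HBZ passed the count filter only through the line, so it could not have been called as a fall. Of the chains named here, the embryonic, alpha and minor adult ones were all higher in each SAR302503 library. Library 3 was the highest for HBE1, HBA1 and HBZ. HBB, HBG1 and HBG2 are also on the list and are not reported here. HBA2, a near copy of HBA1 with which reads may be shared, differed by 3.18 ± 0.38, HBD, the delta chain, by 2.23 ± 0.43 and HBQ1 by 1.99 ± 0.37. With a term for the run-again libraries 5 globins rose.

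Haem synthesis and the red cell membrane rose by smaller amounts. Of 19 haem and iron genes 9 rose and 0 fell, with a median of 0.61. ABCB10, a mitochondrial transporter needed for haem synthesis, stood at 1309, 1356 and 1228 in naive cells and 2905, 2982 and 2792 in the line (1.16 ± 0.15, adjusted p = 0.000385). ALAS2, the first enzyme of erythroid haem synthesis, stood at 745, 823 and 785 against 1578, 1330.4 and 1708 (0.97 ± 0.18, adjusted p = 0.00307). FECH, the last enzyme, rose by 0.98 ± 0.17, CPOX by 0.86 ± 0.17 and UROD by 0.83 ± 0.17. The steps from first to last were each higher in all 3 SAR302503 libraries. Of 23 red cell membrane genes 12 rose and 1 fell, with a median of 0.58. AQP1, a water channel, stood at 1149, 993 and 1063 against 7520.2, 8092 and 9140.3 (2.95 ± 0.16, adjusted p = 6.55e-07). SLC4A1, the band 3 anion exchanger, stood at 105, 155 and 179 against 689.6, 719 and 869 (2.39 ± 0.25, adjusted p = 6.2e-05). SPTB, a chain of the membrane skeleton, rose by 1.18 ± 0.18, and AHSP, the chaperone of alpha globin, by 1.73 ± 0.37. AQP1 and SLC4A1 showed several times their naive level in every library of the line. The membrane genes higher numbered 6 without SAR302503 library 1, 7 without naive library 2 and 5 without naive library 3.

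Mitotic genes rose together by modest amounts. Of 40 genes of G2 and M phase 31 rose and 0 fell, with a median of 0.79. CCNB1, the mitotic cyclin B1, stood at 1253, 1014 and 798 in naive cells and 2432, 2530.0 and 2338 in the line (1.27 ± 0.19, adjusted p = 0.000869). CENPA, the centromeric histone, stood at 393, 337 and 397 against 774, 862 and 995 (1.22 ± 0.19, adjusted p = 0.00135). PBK, a mitotic kinase, stood at 312, 234 and 181 against 738, 851 and 662 (1.65 ± 0.24, adjusted p = 0.000666). For each of the 3 the line was above naive cells with no overlap, and of the 40 genes 36 did not overlap between groups, against 33.3% of all genes tested. CDC20, an activator of the anaphase-promoting complex, rose by 1.04 ± 0.21. The number of rises moved with single libraries. It was 13 without SAR302503 library 1, 20 without SAR302503 library 2, 37 without SAR302503 library 3, 17 without naive library 2 and 15 without naive library 3.

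Of 40 S phase genes 12 rose and 0 fell, with a median of 0.47. E2F2, a factor that drives replication genes, rose from 865, 830.3 and 802 to 2429, 2367 and 2844 (1.61 ± 0.16, adjusted p = 5.86e-05). PCNA, the sliding clamp of DNA polymerase, rose from 3381, 2513 and 2263 to 4805, 5403 and 5597 (0.97 ± 0.18, adjusted p = 0.00356). RRM2, a subunit of ribonucleotide reductase, rose by 0.94 ± 0.17. S phase rises numbered 6 without SAR302503 library 1, 6 without naive library 2 and 7 without naive library 3. CDKN2D, the inhibitor p19 of CDK4 and CDK6, rose from 872, 1085 and 1116 to 2636, 2628 and 3869 (1.55 ± 0.20, adjusted p = 0.000286), so an inhibitor rose beside CCND3, a partner of the same kinases.

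**Figure D3:**
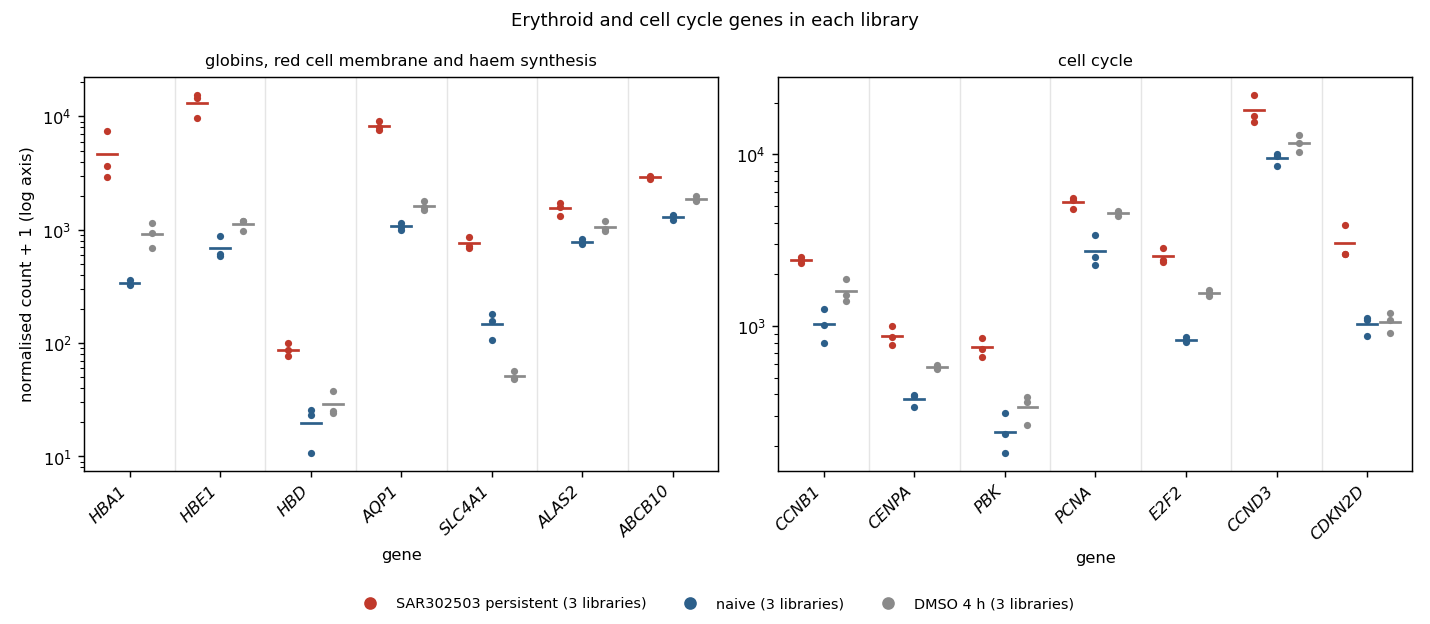
Normalised count plus 1 (y axis, log scale) of erythroid genes (left) and cell cycle genes (right) in each library of the SAR302503 line, naive cells and DMSO cells; points are libraries and lines are means of 3. HBE1 reaches 9722 to 15432 in the line against 584 to 879.9 in naive cells, and the cell cycle genes differ by smaller steps, with DMSO cells above naive cells for PCNA and E2F2.

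Nuclear genes of the respiratory chain rose in 12 of 39 tested and fell in 0, with a median of 0.48. COX7B, a cytochrome oxidase subunit, rose from 782, 766 and 625 to 1828, 1647 and 2227 (1.39 ± 0.19, adjusted p = 0.000411). COX7A2 rose from 1743, 1861 and 1638 to 3659, 3851 and 5265 (1.27 ± 0.18, adjusted p = 0.000563). NDUFA4 rose by 1.28 ± 0.25. DMSO cells held COX7B at 1913, 1765 and 1615, in the range of the line (0.10, adjusted p = 0.637), and NDUFA4 was not called against them either (0.35, adjusted p = 0.215). COX7A2 was higher against both controls (0.67 against DMSO, adjusted p = 0.0102). With the term for the run-again libraries the call for NDUFA4 was lost (adjusted p = 0.0704). The count was 5 without SAR302503 library 1, 6 without naive library 2 and 4 without naive library 3.

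Glycolysis and hypoxia genes were split: 8 of 32 rose and 3 fell. SLC2A1, the glucose transporter GLUT1, rose from 5344, 5109.9 and 4819 to 11732, 10871 and 15116 (1.29 ± 0.17, adjusted p = 0.000299). PFKM, a phosphofructokinase, rose from 1661, 2059.5 and 2007 to 3911, 3397 and 3912 (0.97 ± 0.16, adjusted p = 0.00187). CA9, a carbonic anhydrase known as a hypoxia marker, fell from 318, 254 and 290.4 to 79.4, 68.6 and 52 (-2.11 ± 0.27, adjusted p = 0.000309), whereas ANKRD37, also a hypoxia target, rose by 1.81 ± 0.39. PFKL and PFKP, the other phosphofructokinases, differed by 0.10 ± 0.24 and -0.01 ± 0.16. The direction of CA9 turned with the control: DMSO cells held it at 18.7, 8.21 and 20.6, and the line was higher than they were by 2.08 (adjusted p = 0.00591). The call for ANKRD37 was lost with the term for the run-again libraries (1.94, adjusted p = 0.0588). The rises numbered 4 without SAR302503 library 1, 5 without naive library 2 and 4 without naive library 3.

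Among 12 ABC transporters 1 rose and 3 fell. ABCB1, the drug efflux pump P-glycoprotein, rose from 1234, 979 and 1018 to 2834, 2703 and 1988 (1.21 ± 0.19, adjusted p = 0.00121). ABCB11, the bile salt export pump, fell from 2200.0, 2282 and 2277 to 166, 225 and 123 (-3.75 ± 0.23, adjusted p = 1.38e-06). ABCB4, whose gene lies beside ABCB1 in the genome, fell from 121, 127 and 108 to 33.4, 55.9 and 24.7 (-1.69 ± 0.37, adjusted p = 0.00858). The call for ABCB4 was lost with the term for the run-again libraries (-1.07, adjusted p = 0.177) and against DMSO cells (-0.53, adjusted p = 0.374). ABCG2, another drug pump, did not pass (-0.75 ± 0.49, adjusted p = 0.346). Of 17 BCL2 family genes 0 rose and 2 fell. BCL2, which blocks apoptosis, fell from 284, 156 and 166 to 32.2, 53.4 and 91.6 (-1.83 ± 0.40, adjusted p = 0.00909). Its call was lost with the term for the run-again libraries (adjusted p = 0.0774) and against DMSO cells (-1.05, adjusted p = 0.0579). BCL2L1, which encodes BCL-XL, stood at 7978, 6793 and 9899 in the line and 6034, 6230.3 and 5773 in naive cells (0.44 ± 0.17, adjusted p = 0.113).

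The rises with the largest log2 difference were mostly genes of squamous and basal epithelium. Of the 10 squamous epithelial markers tested 9 rose, and 8 did without library 3. Some, such as KRT14, were under 10 in every naive library and passed the count filter only through the line. Such genes could rise or go uncalled but could not fall, so this count was partly fixed by the filter. KRT14, a basal keratin, stood at 482, 837 and 10072 in SAR302503 libraries 1 to 3 and at 7.03, 1.08 and 0 in naive libraries (9.29 ± 0.99, adjusted p = 7.6e-05). KRT5, its partner, stood at 657, 2301 and 9878 against 58.6, 301 and 18.3 (5.13 ± 0.96, adjusted p = 0.0037). Library 3 held most of both transcripts, while libraries 1 and 2 were also above naive cells. The summed level of the 15 squamous markers ranged from 2387.8 to 33894.6 in the line and from 88.7 to 663.1 in naive cells, where KRT6B, KRT17 and SPRR1B were at 0. DMSO cells held 395.1 to 2161.3. TP63, the factor of basal epithelium, stood at 84, 135 and 842 against 8.21, 15.1 and 0 (5.33 ± 1.00, adjusted p = 0.00377). SOX2, which is co-expressed with it in squamous cells, had 477 reads in the line and 0 in naive cells, at least 157-fold higher against a floor of 3 reads over the group. Its levels in libraries 1 to 3 of the line were 20.7, 24.1 and 387, and without library 3 the bound was 20.6-fold. KRT19, at 73.7, 116 and 1376, had 1718 reads against 3, a ratio of 567 with a 95% counting interval of 194 to 2751, and 86.2 (29.0 to 423) without library 3. Library 3 thus held most of the reads of both. Of the 12 largest rises named by rule, 11 had library 3 over 2 times the mean of libraries 1 and 2, and all 12 were among the genes over 8 times higher in the epithelial-rich library 2 of the CYT387 line than in its libraries 1 and 3. Of 607 tested genes with that pattern, 136 were higher in the SAR302503 line and 67 lower. The part of epithelial RNA in these rises was not tested. With those 607 genes left out, 955 were higher and 1505 lower.

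WNT5A was the exception among the largest rises, with a similar level in all 3 libraries. This secreted ligand of non-canonical Wnt signalling stood at 372, 451 and 566 in the line and at 0, 0 and 1.02 in naive cells (8.50 ± 0.48, adjusted p = 9.63e-07). Its 1321 reads against 1 give a ratio of 1307 with a 95% counting interval of 234 to 51669. Library 2 of the CYT387 line also held WNT5A, at 1578.44, against 55.65 and 42.5 in libraries 1 and 3 of that line. Other genes of the pathway were split, with 5 of 27 Wnt and Notch genes higher and 5 lower. RNF43, which removes Wnt receptors, rose from 293, 369 and 351 to 889.9, 809 and 874 (1.35 ± 0.19, adjusted p = 0.000608), and FZD3, a receptor, fell by 1.59 ± 0.26. JAG1, a Notch ligand, rose by 1.09 ± 0.18 while the receptor NOTCH2 fell from 12871, 14440.2 and 14601 to 5961, 5633 and 5035 (-1.33 ± 0.15, adjusted p = 0.000123).

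Further rises were picked by a rule that the 3 libraries of the line lie within 2 times of each other on counts plus 10. SH3RF2, a scaffold protein with SH3 domains, stood at 786, 827 and 777 against 8.21, 19.4 and 21.4 (5.63 ± 0.35, adjusted p = 1.73e-06). E2F7, a repressor of the E2F family, stood at 395, 431 and 334 against 18.8, 24.8 and 13.2 (4.31 ± 0.32, adjusted p = 5.79e-06). FBLN2, a matrix protein, stood at 1102, 723 and 1341 against 51.6, 63.6 and 73.4 (4.02 ± 0.28, adjusted p = 3.16e-06). Their evenness was required by that rule, which was added after the values were seen, so it is not a contrast with the keratins. FGD6 rose by 3.60 ± 0.25, SLC30A10, a manganese exporter, by 3.58 ± 0.29 and DPPA4, a gene of pluripotent cells, by 3.58 ± 0.26.

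**Figure D4:**
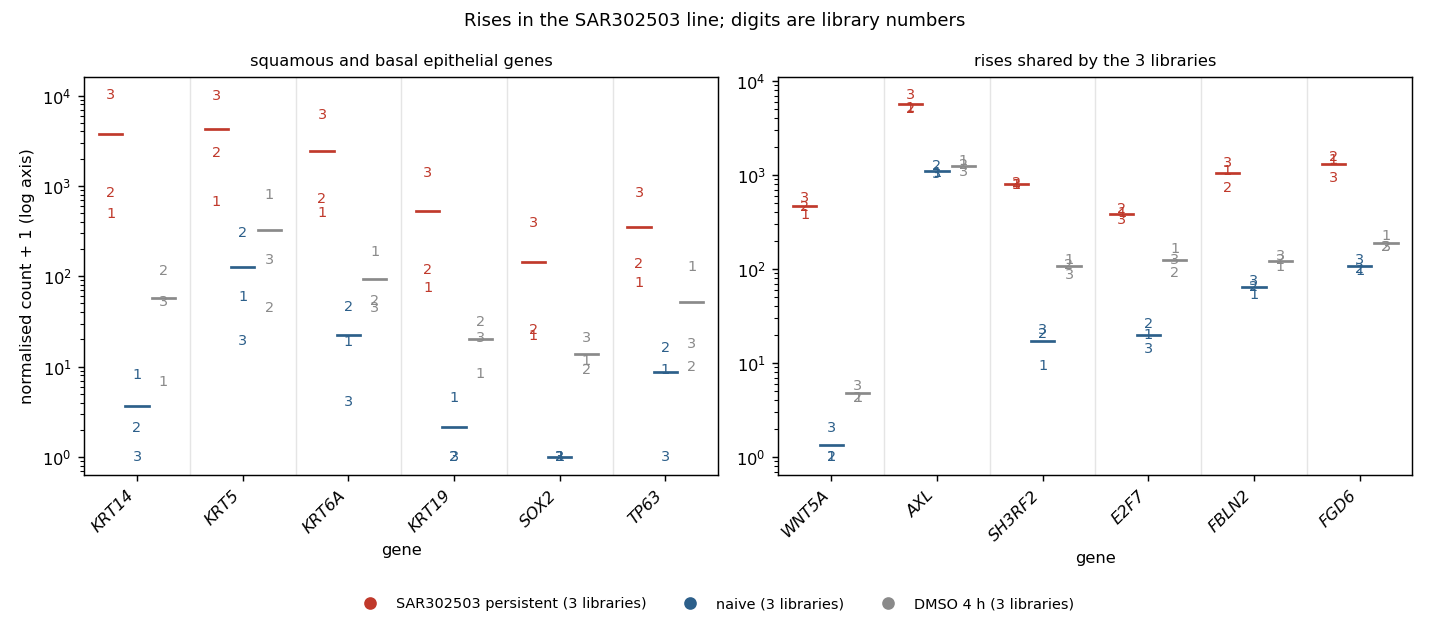
Normalised count plus 1 (y axis, log scale) of epithelial genes (left) and of rises shared by the libraries (right); digits are the library numbers 1 to 3 in the SAR302503 line, naive cells and DMSO cells, and lines are means. In the epithelial genes library 3 of the line lies far above libraries 1 and 2 (KRT14 at 10072 against 482 and 837). The shared rises are shown because their 3 libraries lie close together (SH3RF2 at 777 to 827).

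The largest falls were named only where every SAR302503 library lay under every naive one, so that separation is set by the rule. ATP10A, a phospholipid flippase, stood at 268, 307 and 249 in naive cells and had 0 reads in all 3 SAR302503 libraries, at least 255-fold lower against a floor of 3 reads over the group. AFF2, a nuclear protein of the AF4 family, fell from 2008, 1509.6 and 1699.9 to 16.1, 6.35 and 9.69 (-7.29 ± 0.33, adjusted p = 1.83e-07). MS4A6A, a myeloid membrane protein, fell from 2603, 2535 and 2819.9 to 35.7, 41.9 and 45.8 (-5.98 ± 0.21, adjusted p = 3.05e-08). All 3 kept their call when any 1 library was left out, which the naming rule required for SAR302503 library 3. MAOB, which oxidises amines, fell from 442, 356 and 338 to 0, 21.6 and 0 (-7.06 ± 0.96, adjusted p = 0.000422), with reads in library 2 of the line only. MAS1L and TRIM67 differed by -6.52 ± 0.71 and -6.11 ± 0.60.

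Against DMSO cells, a separate fit tested 17439 genes and found 3090 higher in the line (17.7%) and 2909 lower (16.7%). The counts of genes higher were 1813 without DMSO library 2 and 1968 without DMSO library 3, and of genes lower 1733, 1552 and 1641 without DMSO libraries 1, 2 and 3. DMSO and naive cells are both free of inhibitor and share the SAR302503 libraries as the other arm, so the 2 comparisons are not independent.

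MHC class II genes were lower than in DMSO cells as well, 9 members lower and 1 higher. DMSO cells held HLA-DRA at 1547, 1709 and 1789 and CIITA at 474, 674 and 667, differences of -3.55 (adjusted p = 1.1e-05) and -3.66 (adjusted p = 2.46e-05) for the line. Mast cell genes gave 10 lower and 0 higher, with CPA3 at 928, 805 and 763 in DMSO cells, between the line and naive cells. Globins gave 9 higher and 0 lower, and HBE1 stood at 1201, 979 and 1204 in DMSO cells. Mitotic genes gave 28 higher and 1 lower. In HLA-DRA, CIITA, CPA3 and HBE1 the SAR302503 libraries did not overlap with either control.

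Other lists depended on the control. S phase genes gave 6 higher and 6 lower against DMSO cells, in which RRM2 stood at 4606, 4424 and 4209, and E2F2 was higher in the line against both (0.70 against DMSO, adjusted p = 0.00358). ATF4 stress genes gave 0 higher and 7 lower against naive cells (12 lower without SAR302503 library 3), but 12 higher and 1 lower against DMSO cells. DDIT3, the stress factor CHOP, stood at 1444, 1015 and 941 in the line, at 2206, 2733 and 2857 in naive cells and at 354, 274 and 349 in DMSO cells. TRIB3, its pseudokinase target, and EGR1, an immediate early factor, were likewise between the 2 controls. JAK kinases and STATs gave 7 higher and 0 lower against DMSO cells, where STAT5B stood at 5705, 5849.9 and 5925, under every SAR302503 and naive library. Glycolysis and hypoxia genes gave 21 higher and 0 lower against DMSO cells, ribosome biogenesis genes 1 higher and 24 lower, and cytosolic ribosomal proteins 21 higher and 0 lower. PIM1 stood at 8558, 9511 and 9936 in DMSO cells, so the line was higher by 1.74 (adjusted p = 4.43e-05), whereas it did not pass against naive cells. IL5RA stood at 35.8, 32 and 60.9 in DMSO cells and was not called against them (-0.93, adjusted p = 0.166), and DLK1, which fell by 3.18 ± 0.25 against naive cells, differed from DMSO cells by -0.07 (adjusted p = 0.866). Other named rises that were not called against DMSO cells were FECH, SPTB, CDC20, PCNA, RRM2, GAL, TP63 and SOX2 (adjusted p = 0.0518 to 0.281). The falls of STAT4 (-1.36, adjusted p = 0.0645) and HLA-DMB (-2.59, adjusted p = 0.113) were not called either. IL10RA and NMUR1 were fitted against DMSO cells with the genes tested against naive cells. Neither was called (-1.66, adjusted p = 0.187, and -0.58, adjusted p = 0.739).

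The term for the run-again libraries ended further calls against naive cells. These were EPOR, HBZ, HBD, HBQ1, ALAS2, UROD, CDC20, KRT5, TP63 and SOX2 among the rises (adjusted p = 0.0533 to 0.234) and STAT4, IL10RA, PPBP and HLA-DMB among the falls (adjusted p = 0.0504 to 0.339). All kept their direction.

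The line was compared with the other 3 persistent lines in a fit of 11 libraries, which leaves out library 2 of the CYT387 line because squamous markers took 0.555% of its reads. Of 18624 genes tested, 344 (1.85%) were higher in the SAR302503 line than in each of the other 3 lines and 473 (2.54%) lower. With CYT387 library 2 the counts were 90 and 205. Without SAR302503 library 1 197 genes were higher, and without SAR302503 library 3 1300 were higher and 1119 lower.

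Class II chains were lower in the SAR302503 line than in each other persistent line, but the INC424 line was low as well. Of 18 pathway genes tested 7 were lower than in all 3, namely the alpha and beta chains HLA-DRA, HLA-DRB1, HLA-DRB5, HLA-DPA1, HLA-DPB1, HLA-DQA1 and HLA-DQB1. HLA-DRA averaged 144 ± 25.3 (SD, n = 3) in the SAR302503 line, 3159 ± 332 in the BMS911543 line, 9821 ± 760 in the CYT387 line (n = 2) and 472 ± 102 in the INC424 line. The order was the same for CIITA at 46.6 ± 7.48, 754 ± 97.3, 1950 ± 90.0 and 59.8 ± 13.7, but CIITA differed from the INC424 line by only -0.34 ± 0.21 (adjusted p = 0.3). CD74 likewise was not distinguished from the INC424 line (-0.13 ± 0.15, adjusted p = 0.62). Naive cells averaged 2319 for HLA-DRA, 651 for CIITA and 7638 for CD74, and every INC424 library lay under every naive library for these 3 genes, a difference that was not tested.

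Platelet granule cargo had 6 of 16 tested members lower than in all 3 lines, and the NF-kB list 5 of 25. PPBP averaged 395 ± 20.2 in the BMS911543 line, 1421 ± 85.0 in the CYT387 line and 466 ± 35.7 in the INC424 line, while the SAR302503 line had 1 read. The ratios were 1100 (95% counting interval 197 to 43468), 3958 (710 to 156377) and 1309 (235 to 51727). VWF averaged 5.38 ± 6.31 in the SAR302503 line and 828 ± 230, 2602 ± 401 and 376 ± 23.2 in the BMS911543, CYT387 and INC424 lines. THBS1, thrombospondin, averaged 537 ± 174 in the SAR302503 line and 24500 ± 586, 20510 ± 874 and 11580 ± 381 in the same lines. Naive cells held PPBP at 15.2 and THBS1 at 665.0 on average, and for both genes the other lines stood above naive cells. DMSO cells held THBS1 at 7906, 7535 and 7064, 3.50 above naive cells on the log2 scale, and the SAR302503 line was lower than DMSO cells (-3.86, adjusted p = 1.99e-05) but not called against naive cells. The 2 inhibitor-free controls thus lay far apart for THBS1. VWF averaged 357.9 in naive cells and 47.7 in DMSO cells.

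DLK1, a Notch-like surface protein, stood at 63.9 ± 14 in the SAR302503 line against 17330 ± 3170, 8505 ± 844 and 9636 ± 1358 in the BMS911543, CYT387 and INC424 lines and means of 577.9 in naive and 66.3 in DMSO cells. CABP7, a calcium-binding protein, averaged 2.94 ± 5.08 in the SAR302503 line and 919 ± 103, 2014 ± 32.9 and 1153 ± 102 in the other lines. TRPC6, a cation channel, averaged 3.07 ± 5.32 against 121 ± 11.8, 261 ± 21.2 and 149 ± 18.7. In naive cells CABP7 averaged 5.80 and TRPC6 0.359, under each of those 3 lines.

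Genes higher than in all 3 lines included WNT5A and AXL. WNT5A averaged 463 ± 97.8 in the SAR302503 line, 13.6 ± 9.54 in the BMS911543 line, 49.1 ± 9.30 in the CYT387 line and 34.5 ± 14.7 in the INC424 line. With CYT387 library 2 it was no longer higher than in all 3. AXL averaged 5761 ± 1127 in the SAR302503 line and 996 ± 65.5, 1815 ± 48.6 and 1018 ± 28.8 in the BMS911543, CYT387 and INC424 lines, near the naive mean of 1114 in 2 of them. The call for AXL held with CYT387 library 2. In libraries 1 to 3 of the SAR302503 line AXL stood above every library of the others. DUSP16, a phosphatase of MAP kinases, averaged 536 ± 47.5 in the SAR302503 line against 60.2 ± 11.1, 112 ± 7.76 and 50.2 ± 13.1, and MAGEC2, a cancer-testis gene, 263 ± 31.6 against 18.3 ± 6.45, 30.4 ± 5.50 and 34.2 ± 14.2. CDKN2D was also higher than in all 3, at 3044 ± 714 against 672 ± 90.4, 1423 ± 49.6 and 1712 ± 264. Glycolysis and hypoxia genes gave 5 of 32 higher than in all 3 and 1 lower, and the 5 became 1 with CYT387 library 2 and 2 without SAR302503 library 1. LDHA, which makes lactate, averaged 30970 ± 1254 in the SAR302503 line and 17400 ± 327, 23610 ± 224 and 13250 ± 962 in the BMS911543, CYT387 and INC424 lines.

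**Figure D5:**
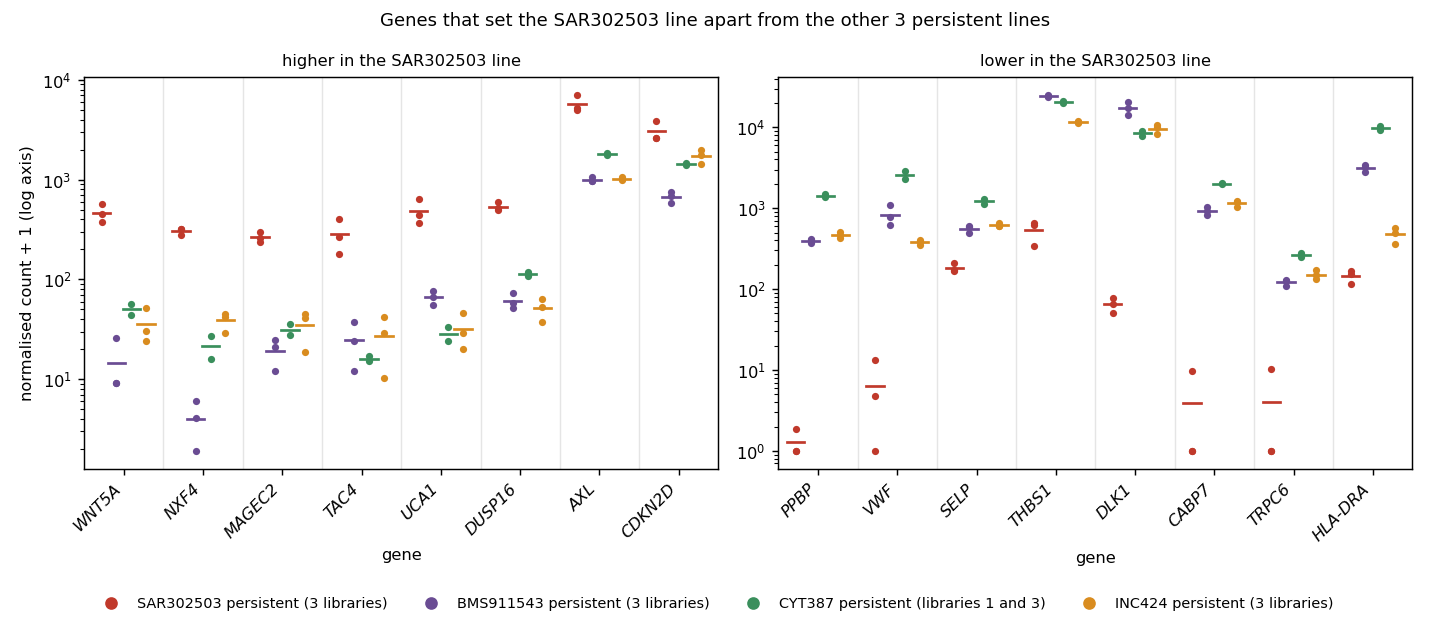
Normalised count plus 1 (y axis, log scale) of genes higher (left) or lower (right) in the SAR302503 line than in each of the other persistent lines; points are libraries and lines are means, with the CYT387 line shown by libraries 1 and 3. For PPBP the SAR302503 line had 1 read while the other lines average 395 to 1421, and for AXL it averages 5761 against 996 to 1815.

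Other genes that rose against naive cells were no higher than in another line, or not distinguished from it. Mitotic genes were higher than in the BMS911543 line in 29 of 40 (18.3% of all genes tested were) and than in the CYT387 line in 27 (9.62%), but than in the INC424 line in 4 (8.89%), with 3 lower (8.27%). HBE1 averaged 13230 ± 3070 in the SAR302503 line, above the BMS911543 line (6104 ± 927) and the CYT387 line (1231 ± 113) and under the INC424 line (24570 ± 2115, difference -0.92 ± 0.16, adjusted p = 0.0015). Of 10 globins tested, 1 was higher than in the BMS911543 line and 3 were lower (18.3% and 14.9% of all genes tested). Against the CYT387 line 3 globins were higher and 0 lower (9.62% and 11%), and against the INC424 line 0 and 3 (8.89% and 8.27%). AQP1 averaged 8251 ± 822 and 8204 ± 272 in the SAR302503 and CYT387 lines, a difference of 0.00 ± 0.12 (adjusted p = 0.99), and 1470 ± 82.6 and 2918 ± 215 in the BMS911543 and INC424 lines. SOCS3 averaged 8401 ± 1904 and 6790 ± 353 in the SAR302503 and CYT387 lines (0.28 ± 0.16, adjusted p = 0.24) against 461 ± 28.4 in the BMS911543 line and 1057 ± 120 in the INC424 line. ABCB1 averaged 2508 ± 456 and 2135 ± 41.4 in the SAR302503 and INC424 lines (0.22 ± 0.13, adjusted p = 0.29), above 894 ± 65.4 in the BMS911543 line and 1420 ± 35.5 in the CYT387 line.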

How the data were processed

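The labels describe poly(A) RNA, cut with RNase III, amplified over 16 PCR cycles and read on an Ion Proton. The deposited table gives 25082 genes as a signal: read counts that the authors divided by 1 size factor per library. The submitters' processing notes name DESeq 1.10.1, HTSeq 0.5.3p3, BWA 0.7.5.1 and the builds GRCh37 and hg19, with roles that are not given in the sources used here. In each library the values are whole multiples of 1 step within 0.01, so whole reads could be recovered, 21770721 to 36160750 per library. In 3 of the 24 libraries the step is within 0.01 of 1, which cannot tell whether they were scaled. Symbols were used as deposited, without coordinates, since the reference tables are of a later build. Promoters of HLA-DRA, CIITA and TPSAB1 were not used here.

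Values were log2-transformed after adding 1. The main test was limma 3.58.1 in R 4.3.3 (trended empirical Bayes, 4 residual degrees of freedom against naive cells), two-sided, adjusted over all genes tested. The fit of the lines was the same with 11 libraries. Alternatives changed the pseudocount (0.5 or 10), the filter (none or 50), the scaling (TMM or upper quartile) and the variance model (no trend, robust, all 24 libraries). Others added a replicate block or a term for rerun libraries, used edgeR 4.0.16 (quasi-likelihood) or DESeq2 1.42.0 on the recovered reads, took DMSO cells as the control, or left out each library. Leaving out 607 genes with an epithelial pattern, the ratios of SOX2 and KRT19 without SAR302503 library 3, and the alternatives of the comparison with DMSO cells, were chosen after seeing the data.

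The members and the gene lists (54 of pathways and 5 of cell markers) were chosen with earlier results of these data known, so list counts are descriptions. Named genes follow a rule: the 12 largest rises and falls past the threshold with a mean of at least 50, no overlap and a call also without SAR302503 library 3; the 8 genes highest and lowest against all 3 other lines; up to 6 members per list by size of change; and the JAK pathway genes. Genes outside it, such as AXL, CD74 in the comparison of lines and the rises even across libraries, were chosen after their values were seen, and some genes the rule allows are not reported here. A floor of 3 reads and 95% Clopper-Pearson intervals cover counting error only. On simulated data the test against naive cells recovered 4%, 44% and 90% of genes raised 1.5, 2 and 4 times and 84% of genes lowered 4 times. It called 9 of 16781 unchanged genes. The changed genes, 50 per size of change, were drawn above a minimum mean, so recovery of low genes was not measured. Epithelial RNA in library 3 of the line was not simulated.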

Additional observations from a re-analysis of the deposited data

Results flagged for a closer look

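These genes differed between the SAR302503 line and each of the other 3 persistent lines in the test of the difference itself, and each value is the log2 difference from the nearest of those lines. Among genes higher in the SAR302503 line TAC4, a tachykinin, differed by 3.52, WNT5A by 3.20, NXF4 by 3.00, MAGEC2 by 3.00 and UCA1, a long non-coding RNA, by 2.84. COL12A1, a collagen, differed by 2.37, DUSP16 by 2.25 and VWA1, a matrix protein, by 2.24. TAC4 and UCA1 averaged 197.8 and 261.2 in naive cells, so for them the other lines were low. Among genes lower in the SAR302503 line CABP7 differed by -8.74, PPBP by -8.32, DLK1 by -7.05, VWF by -6.56 and TRPC6 by -5.81. The pseudogene HERC2P4 differed by -5.09, and its reads may be shared with near copies. The transcripts RP11-19N8.4 (-5.80) and RP11-67H24.2 (-5.31) had 0 reads in the SAR302503 line, at least 50.5-fold and 35.6-fold lower than the nearest line against a floor of 3 reads over the group.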

How the results depend on the processing

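Genes higher than in naive cells (1091) became 679 without the trend, 1782 with all 24 libraries fitted, 450 with the run-again term, 3096 with DMSO cells as the control and 528 to 1712 with each library left out in turn. Genes lower (1572) became 994 with the run-again term, 2702 with DMSO cells and 938 to 2202 over the leave-outs. Against DMSO cells the 3090 higher became 1813 to 4469 and the 2909 lower 1552 to 4217 over the leave-outs. Genes higher than in all 3 other lines (344) became 90 with CYT387 library 2 and 197 to 1300 over the leave-outs; genes lower (473) became 205 and 378 to 1119. With the replicate number as a block 1276 genes were higher and 1794 lower than in naive cells. The numbers do not pair the samples: the correlations of same-numbered deviations were 0.047, -0.228 and 0.028.

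With DMSO cells as the control the difference changed sign for CA9 (2.08), DDIT3 (1.78), EGR1 (1.23), PIM1 (1.74), RFX5 (0.40), RRM2 (-0.25), SOX4 (0.38), SPTB (-0.23), STAT5A (0.67), STAT5B (1.03), STAT6 (0.73) and TRIB3 (1.19). With CYT387 library 2, TAC4, WNT5A, NXF4, COL12A1 and VWA1 were no longer higher than in all 3 lines. The cause of these changes was not tested. With few libraries per group, small changes are missed: the recovery for 1.5-fold rises on simulated data was 4%.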

Other observations

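Counts of some further gene groups against naive cells are given beside 6.35% of all genes higher and 9.15% lower. Of 40 ribosome biogenesis genes 1 was higher and 1 lower, and of 38 cytosolic ribosomal proteins 2 were higher and 1 lower. These lists depended on the control: against DMSO cells 24 of the ribosome biogenesis genes were lower and 1 higher, and 21 of the ribosomal proteins were higher and 0 lower. Of 13 genes that restrain JAK2, such as the adaptors, ubiquitin ligases and phosphatases of the pathway, 0 were called in either direction, though 2 were higher and 2 lower without SAR302503 library 3. Of 30 interferon-stimulated genes 3 were higher and 4 lower, of 31 cholesterol synthesis genes 1 and 2, and of 23 p53 targets 4 and 3. Endoplasmic reticulum chaperones were lower in 5 of 22 and higher in 0; 2 were lower without SAR302503 library 1 or naive library 2, and 3 without naive library 1 or 3. Against DMSO cells, where 17.7% of all genes tested were higher and 16.7% lower, the p53 targets gave 10 higher and 3 lower. The interferon-stimulated genes gave 5 and 1, the cholesterol synthesis genes 4 and 1, the genes that restrain JAK2 3 and 0, and the chaperones 3 and 1.

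CD3E and CD3G, chains of the T cell receptor complex, were low but higher in the line. CD3E stood at 12.7, 31.8 and 49.3 against 1.17, 4.31 and 2.04 in naive cells (3.11 ± 0.71, SE, adjusted p = 0.0117). CD3G stood at 39.1, 24.1 and 15.9 against 0, 0 and 1.02 (4.35 ± 0.78, adjusted p = 0.00285). Neither gene overlapped between the groups, and library 3 of the line was the highest for CD3E and the lowest for CD3G. Both were under 10 in every naive library and passed the count filter only through the line. They could rise or go uncalled but could not fall. They were picked from the lymphoid markers, of which 6 were tested, 3 rose and 1 fell. The call for CD3E was lost with the term for the run-again libraries (adjusted p = 0.0715).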
